A study of Mus musculus with 10 samples.

Results

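Small leucine-rich proteoglycans (SLRPs) are secreted proteins of the extracellular matrix, built on a leucine-rich repeat core and often carrying sulfated glycosaminoglycan chains. The 8 followed here were *Dcn*, *Bgn*, *Aspn*, *Fmod*, *Lum*, *Prelp*, *Omd* and *Ogn*, out of 18901 genes in the table, and they were chosen by their measured values, as a family that stood high in fibroblasts in these same libraries. All 8 were found, and 8 of 8 passed the filter on low values, a normalised read count of at least 10 in at least 2 of 10 libraries. In the 8 libraries of reprogrammed cells alone, 6 of them would have passed, without *Aspn* and *Fmod*.

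Poly(A) RNA was sequenced from Oct4-GFP mouse embryonic fibroblasts (MEF) and from cells reprogrammed by retroviruses carrying the OSKM factors (*Pou5f1*, *Sox2*, *Klf4* and *Myc*), all on a background given as a cross of mf1 and 129. MEF were sampled at passages 2 and 4. The other lines were sampled at passages 5 and 25: pre-iPS cells, which are arrested part of the way and neither reactivate the endogenous Oct4-GFP locus nor silence the transgenes, 1 clone of control induced pluripotent stem (iPS) cells, and 2 clones of iPS cells derived with recombinant Netrin-1 (rNetrin-1), a secreted guidance cue added during reprogramming and absent from the other lines' derivation. iPS lines were kept in KSR+LIF medium and MEF in serum. Each line was thus represented by 2 passages of 1 derivation. A limma or edgeR p between lines below is relative to the spread between passages of a line, and not between independent derivations. Exact permutation tests between lines exchanged single libraries, so that 2 passages of 1 line counted there as separate units. The passage tests compared passages 25 and 5 within lines.

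The 8 pre-iPS and iPS libraries held 38110410 to 46357031 reads over genes, which left 1 read worth 0.888 to 1.04 on the normalised scale. All 14 fibroblast markers were higher in MEF than in iPS lines and all 12 pluripotency markers lower. In pre-iPS cells 6 of the 12 pluripotency markers were lower than in iPS lines, among them *Dppa3* and *Esrrb*, while *Pou5f1* was higher (limma, adjusted p = 4.47e-06). The Y-linked *Ddx3y* read 1578 to 1785 in control iPS and 1478 to 1479 in clone 1, but 0.887 to 1.98 in clone 2 and 1.02 to 1.92 in pre-iPS cells.

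SLRPs are sorted by sequence and gene structure. Class I holds decorin (*Dcn*), biglycan (*Bgn*) and asporin (*Aspn*), class II fibromodulin (*Fmod*), lumican (*Lum*), prolargin (*Prelp*) and osteomodulin (*Omd*), and class III osteoglycin (*Ogn*). Most of them bind fibrillar collagens and set the diameter and spacing of fibrils, and several bind growth factors of the TGF-beta family or signal through cell surface receptors. In connective tissue they are made mainly by fibroblasts, chondrocytes, osteoblasts and tendon cells.

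The genes lie in 4 neighbourhoods of the mm10 genome (GENCODE M21 positions). *Prelp* (chr1:133910304-133921414, minus strand) and *Fmod* (chr1:134037254-134048277, plus strand) are neighbours on chromosome 1. *Dcn* (chr10:97479609-97518143) and *Lum* (chr10:97565128-97572703) lie on the plus strand of chromosome 10. *Aspn* (chr13:49544443-49567565), *Omd* (chr13:49582462-49592822) and *Ogn* (chr13:49608046-49624501) follow each other on the plus strand of chromosome 13, inside the span of *Cenpp* on the other strand. *Bgn* (chrX:73483602-73495933, plus strand) stands alone on the X chromosome. Annotated exons of *Prelp* share 350 bases with the antisense gene *Gm15851* and those of *Aspn* 7 bases with *Cenpp*. The library kit did not mark strand, so reads over those bases cannot be assigned to one of the partners.

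RefSeq promoter sequences (GRCm38.p6, 250 bases before to 50 after the start) matched 6 of the 8 genes, *Dcn* and *Lum* being without an entry. 4 are given, for the gene with the largest MEF to iPS ratio (*Aspn*, chr13:49544193-49544492, plus strand), the most abundant one (*Bgn*, chrX:73483351-73483650, plus strand) and the ones that differed between reprogrammed lines (*Prelp*, chr1:133921352-133921651, minus strand, and *Omd*, chr13:49582212-49582511, plus strand). Capitals mark TATAAA in *Aspn* and GGGCGG in *Bgn*, on either strand.
Aspn: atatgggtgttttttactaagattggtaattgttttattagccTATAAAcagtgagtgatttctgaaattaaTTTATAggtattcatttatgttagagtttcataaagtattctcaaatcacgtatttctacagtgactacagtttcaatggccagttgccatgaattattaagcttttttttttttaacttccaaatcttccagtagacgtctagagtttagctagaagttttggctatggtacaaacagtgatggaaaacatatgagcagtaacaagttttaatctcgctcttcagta
Bgn: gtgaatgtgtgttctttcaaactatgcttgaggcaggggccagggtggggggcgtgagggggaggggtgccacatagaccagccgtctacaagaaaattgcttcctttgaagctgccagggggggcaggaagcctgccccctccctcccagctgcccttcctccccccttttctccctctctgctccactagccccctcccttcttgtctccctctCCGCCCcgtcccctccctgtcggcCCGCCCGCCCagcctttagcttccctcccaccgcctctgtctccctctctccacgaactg
Prelp: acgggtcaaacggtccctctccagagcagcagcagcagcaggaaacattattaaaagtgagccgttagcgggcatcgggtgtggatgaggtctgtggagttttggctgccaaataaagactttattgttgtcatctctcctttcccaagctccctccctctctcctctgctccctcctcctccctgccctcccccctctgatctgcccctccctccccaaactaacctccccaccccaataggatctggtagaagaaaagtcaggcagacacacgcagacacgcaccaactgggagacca
Omd: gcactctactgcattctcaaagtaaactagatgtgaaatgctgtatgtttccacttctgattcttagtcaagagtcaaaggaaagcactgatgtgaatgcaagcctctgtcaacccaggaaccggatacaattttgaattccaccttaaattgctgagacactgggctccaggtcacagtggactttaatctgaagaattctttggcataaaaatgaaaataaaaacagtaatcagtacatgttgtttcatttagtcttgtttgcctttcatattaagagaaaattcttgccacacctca

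The motifs searched, on both strands and with overlaps allowed, were the TATA box TATAAA, the GC box GGGCGG, the AP-1 motif TGANTCA, the TEAD motif GGAATG, the Runx motif TGTGGT and the E-box CANNTG. *Aspn* held 2 copies of TATAAA, which 13.6% of 32851 promoters contain, and *Bgn* held 3 of GGGCGG, found in 35.7%. *Ogn* held 2 overlapping copies of TATAAA, 1 of GGAATG (14.7% of promoters) and 1 of TGTGGT (16.8%). *Fmod*, *Prelp* and *Omd* held none of these, and TGANTCA (7.81%) was in none of the 6. CANNTG, in 72.3% of promoters and not capitalised, was in all but *Omd*. The ratio of observed to expected CpG ran from 0.0943 in *Omd* to 0.422 in *Aspn*, against a median of 0.384, and GC content from 31.0% in *Aspn* to 63.7% in *Bgn*. These matches are a description of the letters in the window.

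In MEF all 8 genes stood above every reprogrammed line, but by very different factors. These MEF values chose the members and are given without a test. *Aspn*, which carries an aspartate stretch and no usual glycosaminoglycan site, read 9860 and 10410 at MEF passages 2 and 4, against 4.96 to 12.3 in the 6 iPS libraries and 9.18 and 2.88 in pre-iPS cells at passages 5 and 25. The MEF to iPS ratio of means was 1285. Behind the iPS and pre-iPS values of *Aspn* were 3 to 12 reads a library, and 3 reads carry a 95% Poisson interval of 0.619 to 8.77 that covers counting error only.

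*Fmod*, a keratan sulfate proteoglycan that steers collagen crosslinking, read 7491 and 7274 in MEF. It read 5.80 and 8.35 in control iPS, 4.43 and 9.24 in clone 1, 2.97 and 4.47 in clone 2, and 20.4 and 5.76 in pre-iPS cells, in the order of passages 5 and 25. The MEF to iPS ratio was 1256, and a single library, pre-iPS at passage 5, stood apart from the other 7.

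*Lum*, needed for the even fibrils of the cornea and skin, read 22137 and 22498 in MEF. Its values were 19.3 and 13.6 in control iPS, 46.2 and 22.6 in clone 1, 36.7 and 22.4 in clone 2 and 30.6 and 11.5 in pre-iPS cells. The ratio was 833, and the later passage was the lower one in all 4 reprogrammed lines.

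*Ogn*, a class III member first purified from bone, read 15615 and 15996 in MEF against 73.5 to 112 in iPS and 76.5 and 60.5 in pre-iPS libraries, a MEF to iPS ratio of 172. *Bgn*, a TGF-beta binding proteoglycan that also engages Toll-like receptors once released, read 335347 and 320000 in MEF, 4395 to 6636 in iPS and 5498 and 4831 in pre-iPS libraries, a ratio of 57.7. Both were therefore counted well above the lowest genes in every reprogrammed library.

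The remaining members kept more of their fibroblast level. *Dcn*, the founding member that decorates collagen fibrils and binds TGF-beta, read 13314 and 13738 in MEF and 2123 to 3011 in iPS lines, with 2413 and 2603 in pre-iPS cells. The ratio to iPS lines was 5.23. *Prelp*, whose basic amino terminus binds heparan sulfate, read 3998 and 3954 in MEF and 95.7 to 816 in iPS lines, a ratio of 9.08. *Omd*, a keratan sulfate proteoglycan of mineralised tissue, read 226 and 247 in MEF and 77.4 to 167 in iPS lines, a ratio of 2.00. For each of the 8 genes both MEF libraries lay above all 8 others, as they did for 34.6% of all genes tested. The median log2 difference over the members was 6.64 against iPS lines and 6.91 against pre-iPS cells.

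**Figure D1:**
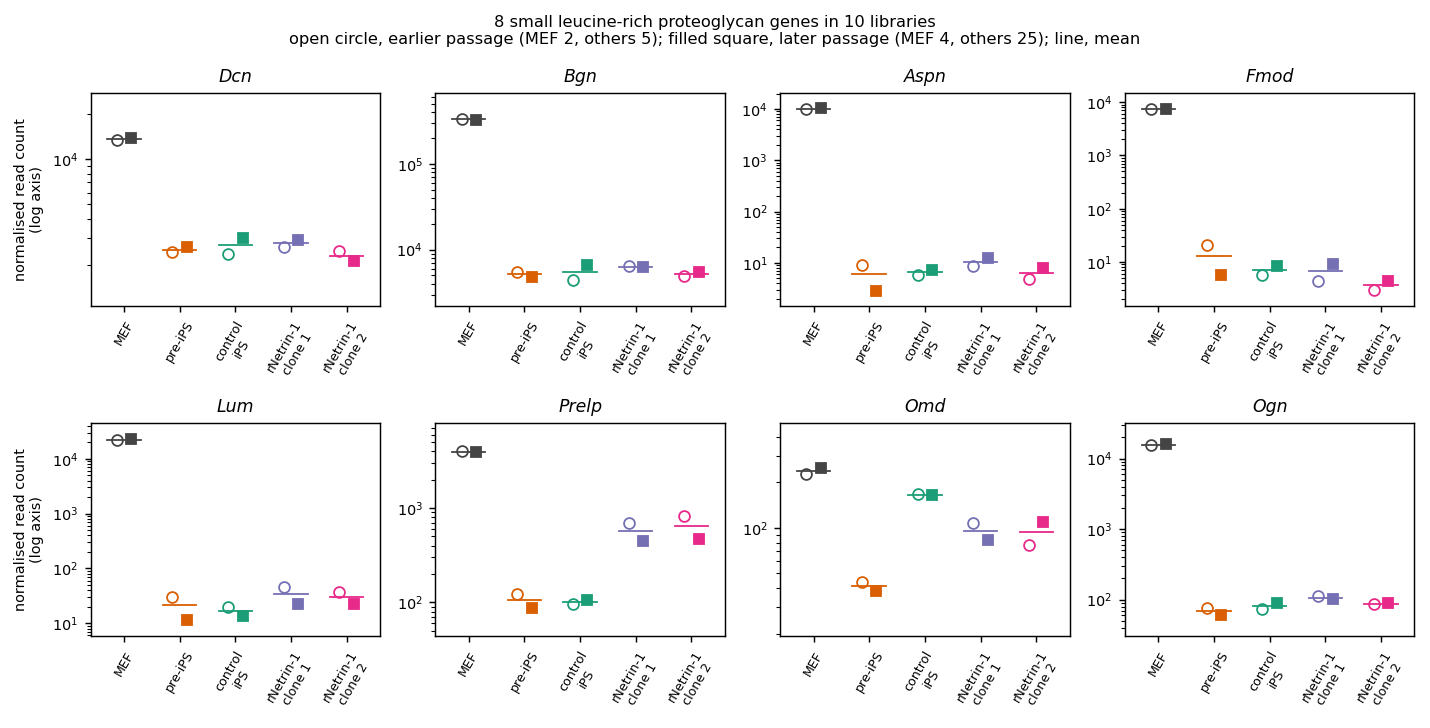
Normalised read count (log axis) of the 8 genes in the 5 lines. Open circles are the earlier passage, filled squares the later one, and bars the mean of both. *Aspn*, *Fmod* and *Lum* fall from at least 7274 in MEF to at most 46.2 in the other lines, *Prelp* is higher in both rNetrin-1 clones than in control iPS and pre-iPS cells, and *Omd* is lowest in pre-iPS cells.

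Divided by the length of the longest transcript, the order of the genes differed between fibroblasts and iPS lines. In MEF the levels per kilobase ran *Bgn* (122908 ± 4070, SD, n = 2), *Lum* (9117 ± 104), *Ogn* (6160 ± 105), *Aspn* (4352 ± 167), *Dcn* (2883 ± 63.9), *Fmod* (2366 ± 49.1), *Prelp* (1100 ± 8.49) and *Omd* (105 ± 6.57), and in no neighbouring pair did the libraries overlap. *Bgn* made up 82.5% of the summed level of the 8 genes, or 68.0% where all annotated exons set the length. In the 6 iPS libraries *Bgn* (2129 ± 342 per kilobase, SD, n = 6) and *Dcn* (551 ± 72.5) led, with 73.3% and 19.0% of the sum, and *Prelp* (121 ± 81.8), *Omd* (52.6 ± 17.4), *Ogn* (35.9 ± 5.08), *Lum* (10.9 ± 4.97), *Aspn* (3.39 ± 1.12) and *Fmod* (1.88 ± 0.784) followed. There *Prelp* overlapped *Omd*, *Omd* overlapped *Ogn* and *Aspn* overlapped *Fmod*, so these neighbours are not ordered. *Lum* stood next to *Bgn* in fibroblasts and near the end of the order in iPS lines, whereas *Dcn* stood behind *Aspn* in fibroblasts and next to *Bgn* in iPS lines.

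The residual levels were set beside those of general fibroblast genes. The 14 fibroblast markers stood at 0.252% to 31.3% of their MEF mean across the 4 reprogrammed lines, with *Postn* lowest and *Twist2* highest, and none was at 0. *Aspn* (0.0595% to 0.105%), *Fmod* (0.0504% to 0.177%) and *Lum* (0.0737% to 0.154%) stood below all 14 markers in each line. *Ogn* (0.433% to 0.672%), *Bgn* (1.58% to 1.94%) and *Dcn* (17.0% to 20.5%) fell inside the marker range, as did *Prelp* (2.53% to 16.2%). *Omd* stood above all 14 markers in each iPS line, at 70.3% in control iPS, 40.5% in clone 1 and 39.5% in clone 2. In pre-iPS cells it stood at 17.4%. The methods name gelatin or irradiated MEF as support for pre-iPS and iPS cells, and the part of feeder RNA in these levels was not tested. In such bulk RNA, fewer cells of a type and less RNA per cell cannot be told apart.

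**Figure D2:**
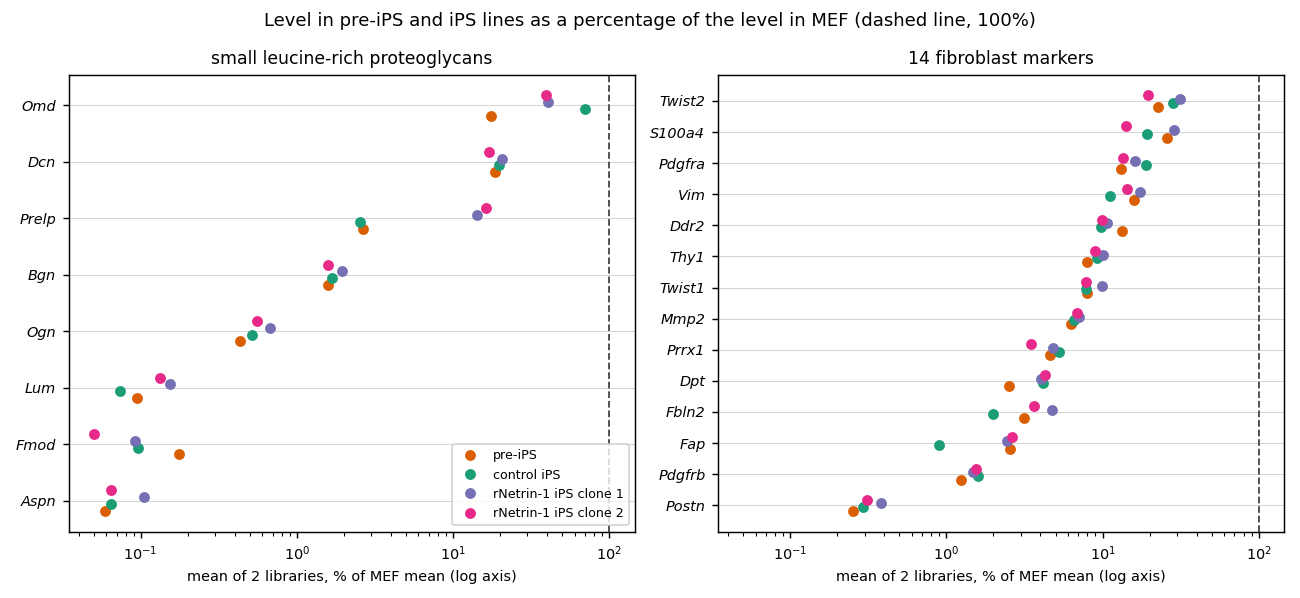
Mean of 2 libraries in each reprogrammed line as a percentage of the MEF mean (log axis), for the 8 genes on the left and for 14 fibroblast markers on the right. The markers spread from 0.252% to 31.3%, with *Aspn*, *Fmod* and *Lum* to the left of all of them. *Omd* in the iPS lines, at 39.5% to 70.3%, lies to the right.

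Whether the 8 genes differ between cells stopped part of the way and fully reprogrammed cells was asked by comparing pre-iPS cells with the 3 iPS lines. A gene was called at an adjusted p under 0.05 (limma, Benjamini-Hochberg over 17075 genes) and a log2 difference of at least 1 in size. *Omd* and *Prelp* were lower in pre-iPS cells, 2 of 8 members, and 0 of 8 were higher, where 11.6% of all genes tested were called lower and 4.71% higher. That split over all genes was 804 higher and 1977 lower, and after quantile normalization 1483 and 1426. The median log2 difference over the 8 was -0.40, against 0.00112 over all genes, but the members' directions depended on the scaling. Under quantile normalization *Dcn* was at -0.09, *Bgn* at -0.17, *Ogn* at 0.000896 and *Aspn* at 0.64. *Lum* was not lower there either, *Fmod* was higher, and *Omd* and *Prelp* stayed lower. *Aspn* and *Fmod*, which enter the median, passed the filter through MEF alone.

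*Omd* read 43.9 and 38.4 in pre-iPS cells, 167 and 165 in control iPS, 108 and 83.1 in clone 1 and 77.4 and 109 in clone 2, at passages 5 and 25. Both pre-iPS libraries lay below all 6 iPS libraries, as for 21.7% of all genes. The log2 difference was -1.44 ± 0.20 (SE, limma, adjusted p = 0.000772). In an exact two-sided permutation test over libraries p was 0.0357, the smallest that 2 against 6 libraries allow. The mean in pre-iPS cells was 41.1 ± 3.86 (SD, n = 2) against 118 ± 39.1 (SD, n = 6). Of 9 chondrocyte and osteoblast markers tested, 4 were lower in pre-iPS cells (*Acan*, *Col2a1*, *Comp* and *Sp7*) and 0 higher, with a median log2 difference of -1.002, and under quantile normalization 3 were lower and 1 higher with a median of -0.37. Their summed level was 3984 to 4208 in pre-iPS cells, 6909 to 8092 in control iPS, 4529 to 5515 in clone 1 and 6740 to 10395 in clone 2. A large part of it was *Alpl*, an alkaline phosphatase gene that was lower in MEF (mean 145) than in iPS lines (3882). Its means were 2383 in pre-iPS cells, 3906 in control iPS, 1833 in clone 1 and 5908 in clone 2. The part of these markers in the values of *Omd* was not tested.

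*Prelp* read 122 and 87.4 in pre-iPS cells, 95.7 and 105 in control iPS, 693 and 445 in clone 1 and 816 and 473 in clone 2. Pre-iPS cells and control iPS overlapped, and the 4 clone libraries stood above both. The log2 difference from the 3 iPS lines together was -1.65 ± 0.24 (SE, limma, adjusted p = 0.00107, exact two-sided permutation p = 0.25). Against control iPS alone, a comparison added after the data were seen, it was 0.04 ± 0.30 (adjusted p = 0.929), and against the rNetrin-1 clones alone -2.49 ± 0.26 (adjusted p = 0.000218). The call for *Prelp* thus rests on the clones. *Omd* was called against each reference, with -1.99 ± 0.24 against control iPS (adjusted p = 0.000492) and -1.17 ± 0.21 against the clones (adjusted p = 0.00363). Of all genes, 11.9% were called lower against control iPS and 10.8% against the clones.

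The other 6 members were not called. *Ogn* differed by -0.42 ± 0.15 (adjusted p = 0.0528), *Lum* by -0.37 ± 0.40, *Bgn* by -0.12 ± 0.14 and *Dcn* by -0.03 ± 0.10 (limma, adjusted p from 0.496 to 0.821). *Aspn* and *Fmod* passed the filter on low values through MEF alone, and their differences between reprogrammed lines are given as values of few reads. They were -0.45 ± 0.38 for *Aspn* and 0.88 ± 0.45 for *Fmod*, which rests on the 20 reads of the pre-iPS library at passage 5. *Dcn* and *Bgn*, which have the most reads, had the smallest differences and SEs.

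The second question was whether iPS lines derived with rNetrin-1 differ from the control line. *Prelp* was higher in the clones, 1 of 8 members, where 0.99% of all genes were called higher, and 0 of 8 were called lower, where 1.12% were. Those 360 calls over all genes became 564 with passage as a block, and 120, 146, 199, 236 and 237 without control iPS at passage 25, control iPS at passage 5, clone 2 at passage 5, MEF at passage 4 and MEF at passage 2, while *Prelp* was called in each. With the library values above, the clones averaged 607 ± 178 (SD, n = 4) and control iPS 101 ± 6.79 (SD, n = 2), a ratio of means of 6.04. The log2 difference was 2.54 ± 0.26 (SE, limma, adjusted p = 0.00272). All 4 clone libraries lay above both control libraries, and the exact two-sided permutation p was 0.0667, the smallest possible with 4 against 2. *Ddx3y* was present in control iPS and clone 1 and near 0 in clone 2, and *Prelp* was high in both clones. The part of the sex chromosomes in the *Prelp* difference was not tested. The clones stood at 14.3% and 16.2% of the MEF mean of *Prelp* and the control line at 2.53%.

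*Omd* was not called, with values in the other direction, at 94.5 ± 16.7 (SD, n = 4) in the clones and 166 ± 1.77 (SD, n = 2) in control iPS. The groups did not overlap, the log2 difference was -0.82 ± 0.21 (limma, adjusted p = 0.0731), and the permutation p was again 0.0667 (exact, two-sided). *Lum* was the third of 8 genes without overlap, where 21.3% of all genes had none, with a log2 difference of 0.87 ± 0.43 (adjusted p = 0.340). The other 5 lay between -0.43 for *Fmod* and 0.29 for *Aspn*. The median over the 8 genes was 0.16, against -0.00723 over all genes.

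The fibroblast markers were read beside these differences. 1 of the 14, *Fap*, a fibroblast surface protease, was called higher in the clones, by 1.43 ± 0.30 on the log2 scale (limma, adjusted p = 0.0360, with 0 of 14 called by edgeR), and 0 were called lower. Their summed level was 36490 to 53345 in control iPS, 61154 to 73221 in clone 1, 47970 to 59499 in clone 2 and 51520 to 64335 in pre-iPS cells, against 772199 to 781223 in MEF. The sum in pre-iPS cells overlapped those of both clones and of control iPS, and the sum in clone 2 also overlapped that of control iPS. Of 5 endothelial markers tested 1 was higher in the clones, *Tie1*, an endothelial receptor kinase, at 252 ± 165 (SD, n = 4) against 65.5 ± 26.3 (SD, n = 2), by 1.75 ± 0.38 on the log2 scale (limma, adjusted p = 0.0419), and edgeR called 0 of 5. By line *Tie1* was at 373 ± 144 in clone 1, 131 ± 42.6 in clone 2 and 400 ± 8.06 in pre-iPS cells (SD, n = 2 each). Against the iPS lines, pre-iPS cells had 2 endothelial markers called higher, *Tie1* and *Tek*, and 2 lower, *Pecam1* and *Cdh5* (limma). All 5 endothelial markers tested were called lower in MEF than in iPS lines, with *Pecam1* at a mean of 3.94 in MEF and 1452 in iPS lines. The part of endothelial cells in these values was not tested. Of 9 chondrocyte and osteoblast markers tested, 0 were called between the clones and the control by limma and 1 had an unadjusted p under 0.05, and edgeR called 0 of the 8 it tested. Of 10 macrophage markers 0 were called by limma, with 1 at an unadjusted p under 0.05, and edgeR called 0 of 5. Of 6 smooth muscle and 5 tendon markers 0 were called by limma, 0 had an unadjusted p under 0.05, and edgeR called 0 of 6 and 0 of 3. The part of other cell types in the clone values of *Prelp* was not tested further.

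**Figure D3:**
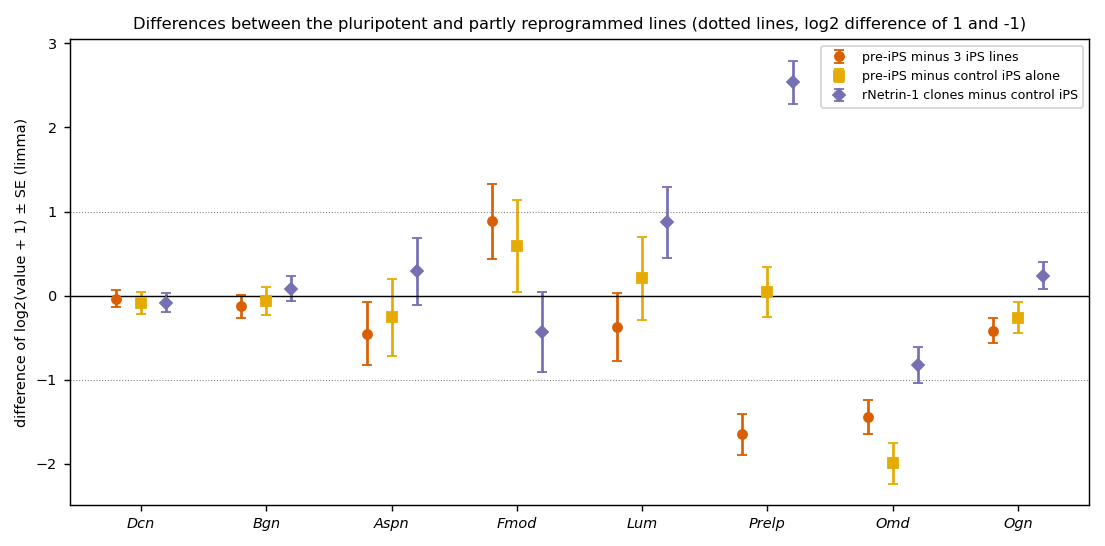
Difference of log2(value + 1) with its SE from limma for each gene, for pre-iPS cells against the 3 iPS lines (circles), pre-iPS cells against control iPS alone (squares) and rNetrin-1 clones against control iPS (diamonds). *Prelp* sits at -1.65, 0.04 and 2.54 in that order, *Omd* is below 0 in all 3, and *Dcn* and *Bgn* lie near 0.

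Between the rNetrin-1 clones 0 of 8 members were called (limma), 0 had an unadjusted p under 0.05, as 16.6% of all genes did, and 0 of the 6 tested by edgeR were called, where 0.966% of all genes were called by limma. The 165 calls behind that share became 327 with passage as a block, 34 and 14 without clone 1 at passages 5 and 25, 260 and 20 without clone 2 at passages 5 and 25, and 40 without either MEF library. Differences of clone 2 from clone 1 ran from -0.68 for *Fmod* to 0.16 for *Prelp*. *Dcn*, *Bgn* and *Ogn* had no overlap between the clones, all lower in clone 2, where 42.8% of all genes had none. *Aspn*, which passed the filter through MEF alone, had 5 and 9 reads in clone 2 and 10 and 12 in clone 1. Its separation was thus 9 reads against 10, and it is not counted with them. With 2 libraries a clone the exact two-sided permutation p cannot fall below 0.333. The X-linked *Bgn* read 4905 and 5417 in clone 2 and 6410 and 6295 in clone 1, a log2 difference of -0.30 ± 0.17 (limma, adjusted p = 0.412). *Xist*, the RNA that coats the inactive X, read 20013 to 21946 in clone 2 and 144 to 154 in clone 1.

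Between passages 25 and 5, with the line as a block, 0 of 8 were called (limma), 2 had an unadjusted p under 0.05, as 29.1% of all genes did, and 0 of the 6 tested by edgeR were called, where 1.69% of all genes were called by limma. Those 289 calls became 94 and 99 without clone 1 at passages 5 and 25, and 170 and 171 without pre-iPS cells at passages 5 and 25. *Lum* was lower at passage 25 in 4 of 4 lines, by -0.88 ± 0.24 on the log2 scale (limma, adjusted p = 0.0579, exact permutation p = 0.125, the smallest possible with 4 pairs). Its values rest on 12 to 52 reads a library. *Prelp* differed by -0.44 ± 0.17 (adjusted p = 0.133) and was lower at passage 25 in clone 1, clone 2 and pre-iPS cells, and higher in control iPS. The others lay between -0.03 for *Ogn* and 0.13 for *Bgn*. Outside the members, limma called *Acta2* and *Tagln* of 6 smooth muscle markers lower at passage 25. It also called *Csf1r* and *Cd68* of 10 macrophage markers and *Srgn* of 21 other proteoglycans lower. In these lists 0 were called higher, and of 14 fibroblast markers 0 were called. In MEF, with 1 library a passage and no test, the ratio of passage 4 to passage 2 ran from 0.954 for *Bgn* to 1.09 for *Omd*.

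The flanking genes were compared with the members they adjoin. On chromosome 13, *Ecm2*, a leucine-rich matrix gene that lies just before *Aspn*, read 37.7 to 150 in iPS lines, 32.6 to 39.8 in pre-iPS cells and 119 to 121 in MEF. It was called lower in pre-iPS cells than in iPS lines, by -1.04 ± 0.25 (limma, adjusted p = 0.0109). That call was lost under quantile normalization, where *Ecm2* differed by -0.56 (adjusted p = 0.0941), and against the rNetrin-1 clones alone, at -0.69 (adjusted p = 0.0745), whereas *Omd* was called in both. Its line means ran 125 in control iPS, 79.9 in clone 1, 44.4 in clone 2 and 36.2 in pre-iPS cells, and those of *Omd* 166, 95.7, 93.3 and 41.1. *Aspn* and *Ogn*, on either side of *Omd*, were not called. *Cenpp* and *Nol8*, a centromere and a nucleolar protein gene, were lower in MEF than in iPS lines, by -1.34 and -1.14 (limma, adjusted p = 2.27e-05 and 1.57e-06).

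On chromosome 1, *Optc* (opticin, an SLRP of the eye) was higher in MEF, at 137 to 139 against 5.22 to 12.9 in iPS lines. Its difference between clones and control was 0.55 (limma, adjusted p = 0.512), and that of *Fmod* -0.43, beside 2.54 for *Prelp*, which lies between them. *Btg2*, on the far side of *Fmod*, differed between MEF and iPS lines by 0.14 (adjusted p = 0.668). On chromosome 10, *Kera* (keratocan, a corneal SLRP) read 49.6 to 50.9 in MEF and at most 1.05 in iPS lines, and *Btg1* was higher in MEF by 1.08 (adjusted p = 7.63e-07). Beside *Bgn*, *Haus7* and *Atp2b3* differed between MEF and iPS lines by 0.26 (adjusted p = 0.0230) and 0.79 (adjusted p = 0.123).

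**Figure D4:**
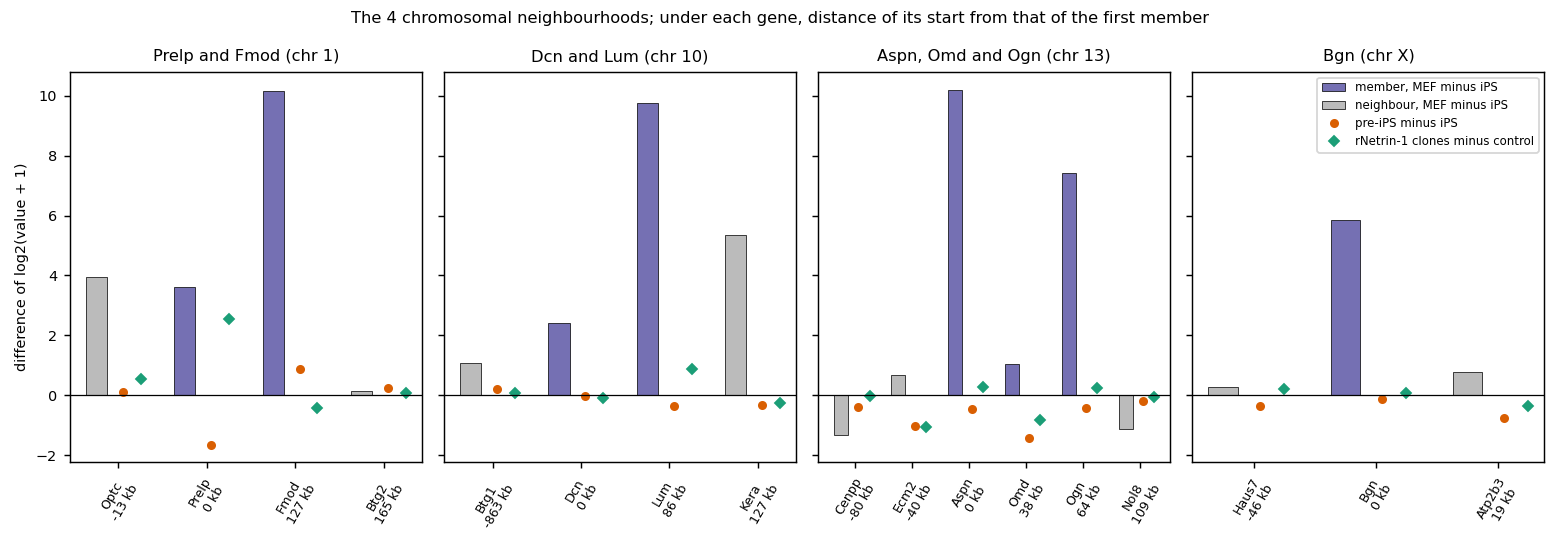
Differences of log2(value + 1) for the members (dark bars) and flanking genes (grey bars) in MEF against iPS lines, with pre-iPS cells against iPS lines (circles) and rNetrin-1 clones against control iPS (diamonds). Genes stand in chromosomal order with the distance of each start from that of the first member, and *Prelp* has a clone difference of 2.54 between *Optc* at 0.55 and *Fmod* at -0.43.

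The partners of SLRPs were taken from lists of the pathway. In MEF against iPS lines, where 21.6% of all genes were called higher and 26.6% lower (3690 and 4547, or 5075 and 3648 after scaling to housekeeping genes, which moved the median of all genes from -0.09 to 0.30), 7 of 10 other SLRP genes were higher and 0 lower. *Podn* (podocan), at 11453 ± 369 (SD, n = 2) against 84.6 ± 29.9 (SD, n = 6), and *Epyc* (epiphycan), at 98.7 ± 3.62 against 0.326 ± 0.505, rose most. Medians below are log2 differences. In MEF against iPS lines they kept their sign for each list given, under quantile normalization and under scaling to housekeeping genes.

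All 14 genes of the collagen list were higher in MEF (median 6.57), led by *Col12a1* (205679 ± 806 against 629 ± 320.3) and *Col5a2* (346060 ± 2848 against 1761 ± 552). The list holds the fibril-forming collagens that most SLRPs bind. It also holds *Col12a1*, *Col14a1*, *Col6a1*, *Col6a2* and *Col6a3*, whose collagens do not form such fibrils. Of 19 genes of collagen processing and crosslinking tested, 16 were higher and 0 lower (median 2.63), led by the proline hydroxylase *P4ha3* and the procollagen protease *Adamts2*. Of 24 ligands and receptors bound by SLRPs, 17 were higher and 2 lower (median 2.32). *Thbs1*, thrombospondin 1, and *Wisp1*, a matricellular protein that binds decorin and biglycan, rose most, whereas the ATP receptor *P2rx7* fell, at 118 ± 14.9 against 821 ± 126.

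The enzymes that make the glycosaminoglycan chains went in both directions, with counts that moved with the scaling. Of 23 genes for the linker and for chondroitin or dermatan sulfate, 15 were higher in MEF and 2 lower (median 1.81). Under quantile normalization 14 were higher and 0 lower, and under scaling to housekeeping genes 17 and 1. *Chsy3*, a chondroitin synthase, and *Chst14*, the dermatan 4-sulfotransferase, rose by 5.74 ± 0.27 and 3.52 ± 0.11 on the log2 scale (limma, adjusted p = 2.04e-07 and 2.72e-08). The sulfotransferases *Chst13* and *Chst3* fell, and neither was called lower under quantile normalization. Of 12 genes for keratan sulfate and sulfation, 4 were higher and 2 lower (median 0.60), with 5 and 2 under quantile normalization and 6 and 1 under housekeeping scaling. *Papss2*, which makes the sulfate donor, was at 2486 ± 31.1 (SD, n = 2) in MEF and 147 ± 23.0 (SD, n = 6) in iPS lines, and *B3gnt7*, an enzyme that extends keratan sulfate, ran the other way, at 50.4 ± 9.86 against 3902 ± 793. Of 21 other proteoglycans tested, 15 were higher and 4 lower (median 2.51), with *Sdc3* and *Spock3* rising most and the brain proteoglycan *Ncan* falling most.

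Between pre-iPS cells and iPS lines the same lists had fewer calls. Of 10 other SLRP genes 0 were higher and 2 lower, *Nyx* (-1.18 ± 0.35, limma, adjusted p = 0.0288) and *Ecm2*, while edgeR called 1 of the 8 it tested. Under quantile normalization 0 were lower and 1 was higher, *Epyc*, and the list's median moved from -0.07 to 0.53. The calls below for *Col14a1*, *Adamts2*, *Chst5*, *Chsy3*, *Erbb4* and *Kdr* were lost under that scaling too. Of the collagens 0 were higher and 2 lower, *Col2a1*, at 196 ± 0.678 against 1303 ± 435, and *Col14a1*. Of the collagen processing genes 1 was higher, *Pcolce*, and 3 lower, with *Adamts2* and *Lox* lowest. *Lox* was at 954 ± 403 (SD, n = 2) in pre-iPS cells, 787 ± 211 in control iPS, 1112 ± 332 in clone 2 and 9208 ± 1386 in clone 1, and against control iPS alone it differed by 0.24 ± 0.31 (limma, adjusted p = 0.586), so that its call rests on clone 1. Of the chondroitin and dermatan sulfate genes 2 were higher, *Chst13* and *Chst3*, and 2 lower, *Dse* and *Chsy3*, and *Dse*, the dermatan sulfate epimerase, fell by 2.00 ± 0.15 on the log2 scale (limma, adjusted p = 3.35e-05). Of the keratan sulfate genes 0 were higher and 3 lower, *Chst1* and *Chst5* most. Of the ligands and receptors 3 were higher, *P2rx7* and *Egfr* most, and 3 lower, *Erbb4* and *Kdr* most. Of the other proteoglycans *Srgn* was higher and 4 were lower, *Acan* (aggrecan, 4.89 ± 2.58 against 335 ± 129) and *Gpc3* most.

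Between rNetrin-1 clones and control iPS, 0 of 10 other SLRP genes, 0 of 14 collagens, 0 of 23 chondroitin or dermatan sulfate genes, 0 of 12 keratan sulfate genes and 0 of 21 other proteoglycans were called by limma, and edgeR called 0 of 8, 14, 23, 12 and 22. At an unadjusted p under 0.05 (limma) these lists held 2, 5, 4, 3 and 8 genes, where 18% of all genes fell under it. By the same measure the collagen processing genes held 10 of 19, and the ligands and receptors 10 of 24. Of the collagen processing genes *Lox*, lysyl oxidase, was higher and *Tll1*, a procollagen protease, lower. *Tll1* was at 122 ± 18.9 (SD, n = 4) in the clones and 530 ± 151 (SD, n = 2) in control iPS, with -2.09 ± 0.18 on the log2 scale (limma, adjusted p = 0.00127). *Lox*, with the line values above, was lower in clone 2 than in clone 1, by -3.07 ± 0.31 (limma, adjusted p = 0.00568), and its call was lost without control iPS at passage 25 (1.75, adjusted p = 0.0742). Of the ligands and receptors *Tgfb2* (966 ± 388 against 377 ± 33.8) and *Tnxb*, tenascin X (286 ± 68.3 against 133 ± 22.7), were higher and 0 lower. *Tgfb2* was at 1288 ± 146 in clone 1 and 644 ± 125 in clone 2, lower in clone 2 by -1.01 ± 0.16 (limma, adjusted p = 0.0274). edgeR called *Tgfb2* and not *Tnxb*, for which its adjusted p was 0.0504, and without either control iPS library *Tnxb* was not called (limma, adjusted p = 0.132 without passage 5 and 0.0705 without passage 25).

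The genes whose pattern was most like the mean of the 8 were sought by Pearson's r of log2(value + 1), as a description. Over 10 libraries, where MEF against the rest fills the range, they were *Cyb5r3*, *Col1a2*, *Col8a1*, *Ccdc127* and *Col5a1*, with r from 0.998 to 0.999. Over the 8 pre-iPS and iPS libraries they were *Foxf1*, *Cyb5r3*, *Fibin*, *Pcdha10* and *Trim29*, with r from 0.913 to 0.953. Within those 8 libraries the r of the members with their own mean was 0.956 for *Ogn*, 0.852 for *Aspn*, 0.742 for *Prelp*, 0.738 for *Lum*, 0.649 for *Bgn*, 0.383 for *Omd*, 0.138 for *Dcn* and -0.0145 for *Fmod*. *Aspn* and *Fmod* passed the filter through MEF alone. They had 3 to 20 reads in each of these libraries, so counting error bears on their r and on the mean they enter. Each member is part of that mean, and the libraries share their lines.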

How the data were processed

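RNA-sequencing libraries of 5 lines at 2 passages each were made by the authors from poly(A) RNA with an unstranded kit and read as single reads on 1 lane. The submitters' processing notes name FastQC, CASAVA 1.8.2, TopHat2 2.0.8b, HTSeq 0.5.3p9, edgeR and the mm10 genome, without roles. The deposited values, used as normalised signal per gene, were edgeR pseudo-counts. In the 8 pre-iPS and iPS libraries every value was a whole number of reads times a constant, within 0.1 read, while reads of MEF were not recovered here, so that MEF depth is not given. Here log2(value + 1) was fitted with limma 3.58.1 (lmFit, eBayes with trend) over the 17075 genes that reached 10 in 2 or more libraries, with 1 mean per line over 10 libraries; the passage comparison used 8 libraries with line as a block. Calls needed a Benjamini-Hochberg adjusted p under 0.05 and a log2 difference of at least 1. Exact permutation tests were run over libraries. Fits were tested on simulated data. Over 6 pairs of lines, the changes from passage 5 to 25 correlated at 0.235 to 0.504, so passage numbers pair the libraries. Alternatives were other pseudocounts, filters and scalings, leaving out each library, the lines compared alone, the passage block and, added after seeing the data, edgeR 4.0.16 on recovered reads and single reference lines. The members and gene lists were chosen with earlier results of these data known. Named genes were the members, the 2 rising and 2 falling most among called genes of each list, flanking genes and the 5 most alike. Promoters came from RefSeq (GRCm38.p6) and positions from GENCODE M21.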

Additional observations from a re-analysis of the deposited data

How the results depend on the processing

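The 3 calls among the members kept their sign and their adjusted p under 0.05 in every alternative tried but 1. For *Prelp* between clones and control the log2 difference ran from 2.34 to 2.79 (limma or edgeR, adjusted p from 0.00116 to 0.0287), and for *Omd* in pre-iPS cells from -1.99 to -1.02 (adjusted p from 0.000492 to 0.0107). The exception was pre-iPS cells against control iPS alone, where 1 member was called and *Prelp* stood at 0.042 and *Lum* at 0.21. *Omd* between clones and control passed an adjusted p of 0.05 in 2 of 19 alternatives, at sizes under 1. With passage as a replicate block, 2 members were called in pre-iPS cells and 1 in the clones, and the block changed no call among the members. Over all genes, the calls between clones and control numbered 360, 564 with the block and 134 with only the lines compared. Between the clones they numbered 165, 327 with the block, 106 with a mean of at least 50, 55 by edgeR and 6 with only the clones compared, and between passages 289, and 6 without the block.

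Of 592 member values under other settings, 550 kept direction and side of the threshold, 2 became calls and 40, of which 0 were called, changed sign. The calls gained were *Fmod* in pre-iPS cells, at 1.92 under quantile normalization and 1.71 without the pre-iPS library of passage 25, a fit in which the lone pre-iPS library is assumed to vary like the other lines. Under quantile normalization *Aspn* (0.64), *Lum* (0.28) and *Ogn* (0.000896) were no longer lower in pre-iPS cells, and *Aspn* changed sign between passages (0.026). With a pseudocount of 5 the passage differences were 0.013 for *Aspn* and -0.023 for *Fmod*, and edgeR gave 0.0051 for *Omd*. The cause was not tested. The median MEF difference of the members was 5.999 and 7.03 from iPS lines, and 6.11 and 7.33 from pre-iPS cells, under quantile normalization and housekeeping scaling.

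Leaving out 1 library at a time, differences that changed sign ran as follows. In pre-iPS cells against iPS lines they ran from -0.093 to 0.025 for *Dcn*, from -1.15 to 0.25 for *Aspn* and from -1.04 to 0.30 for *Lum*. In clones against control they ran from -0.26 to 0.093 for *Dcn* and from -0.21 to 0.38 for *Bgn*. Between clones they ran from -0.67 to 0.33 for *Lum*, from -0.23 to 0.55 for *Prelp* and from -0.29 to 0.20 for *Omd*. Between passages they ran from -0.023 to 0.24 for *Bgn*, from -0.22 to 0.44 for *Aspn*, from -0.25 to 0.61 for *Fmod*, from -0.20 to 0.095 for *Omd* and from -0.14 to 0.067 for *Ogn*. Depth limits *Aspn* and *Fmod*, which had 3 to 20 reads in each reprogrammed library, and to a lesser degree *Lum*, which had 12 to 52.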
